A study of Mus musculus with 2 samples.

Results

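The genes described here were the innate sensors, caspases and gasdermins of the adult mouse small intestine: the Toll-like receptors (TLRs), the NOD-like receptors (NLRs, with the NAIPs), Aim2, the adaptor Pycard, the caspases and the gasdermins. Members were all protein-coding genes whose mouse symbol began with Tlr or Casp and a number, began with Nlr, Naip or Gsdm, or was Nod1, Nod2, Aim2 or Pycard. The rule gave 61 genes of 43346 in the gene tables, of which 21461 were nuclear protein-coding genes. It also took Casp8ap2, which is named for its binding to caspase-8 and is not itself a caspase. The rule uses gene symbols and biotypes only.

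The samples were 2 technical RNA-seq libraries of polyadenylated RNA from the small intestine of 1 mouse, a C57BL/6J female aged 10 weeks. The labels give no treatment and no altered allele, so there was no condition to compare. The libraries are called the first and the second library by their technical replicate numbers, and the labels say that the second was made later and did not belong to the data first published. A difference between them describes 2 preparations from the same animal, and the variation between animals was not measured. The labels name whole tissue, so epithelium, immune cells and stroma were measured together. In such bulk RNA, fewer cells of a type and less RNA per cell cannot be told apart.

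Most of these proteins form a chain from recognition of a microbe to the death of the cell. TLRs sit in the plasma membrane or in endosomes and signal through adaptors such as MyD88 to NF-kB and interferon genes. NAIPs, several NLRs and AIM2 sit in the cytosol, and once they are engaged they build inflammasomes, which activate caspase-1. Caspase-1 matures interleukin-18 and interleukin-1 beta and cleaves gasdermin D, whose free end forms pores in the membrane. In the gut the same caspases and gasdermins are known for the expulsion of infected epithelial cells into the lumen.

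The first library held 28277875 expected counts over the genes and the second 24509862. They stood apart in makeup. Mitochondrially encoded genes took 31.1% of the counts and 49.2% of the TPM (transcripts per 1000000 transcripts, a level that allows for transcript length) in the first library, against 6.19% and 11.4% in the second. Nuclear protein-coding genes took 26.8% of the TPM in the first library and 75.6% in the second. A gene with the same share of nuclear protein-coding RNA in both would therefore have a lower deposited TPM in the first. For the comparison between libraries, counts were scaled by TMM, and ratios are given as log2 of the second over the first library with their counting standard error (SE). A gene was called when the two-sided exact binomial test gave an adjusted p under 0.05 over all 15194 genes with at least 20 counts in both libraries together, and the ratio was 2-fold or more. The test covers counting error only. Because of the difference in makeup a TPM can be higher in the second library while the log2 ratio is negative, and each sentence below says which of them it gives.

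The tissue label was checked against marker genes. All 7 epithelial markers were above 1 TPM in both libraries, with Fabp2, the fatty acid binding protein of enterocytes, at 3191 and 5248 TPM. Paneth cell markers belong to the crypts of the small intestine. They summed to 1434 TPM in the first library and 14612 TPM in the second, with none of the 5 at 0. By the test described above 3 of 5 (60%) were called higher in the second, where 40.2% of all tested genes were. B and plasma cell markers summed to 501 and 653 TPM, T cell markers to 9.76 and 43.0 TPM, and stromal and endothelial markers to 144 and 259 TPM. The TPM was also rescaled so that nuclear protein-coding genes had the same total in both libraries. The B and plasma cell sums were then 1871 and 863, and the stromal and endothelial sums 536 and 343, higher in the first library. Fabp2 turned in the same way, to 11913.5 and 6941.2. T cell sums (36.4 and 56.9) and Paneth cell sums (5353 and 19325) stayed higher in the second.

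Of the 61 members, 29 reached 1 TPM in both libraries and 36 in at least 1 of them. A further 11 had no count in either. The order of the 36 by TPM was similar in the libraries, with Spearman's rho of 0.809 between them as a description. Caspases led when both libraries were averaged. On TPM rescaled to 1000000 over nuclear protein-coding genes, the geometric mean over both libraries was 395 for Casp1, 296 for Casp6, 122 for Pycard and 107 for Naip5. On that scale Casp1 measured 845 in the first library and 185 in the second, Casp6 359 and 245, and Pycard 84.1 and 177. The ranges of Casp1 and Casp6 overlapped, and Casp6 was the higher of them in the second library. Those of Casp6 and Pycard did not overlap. From Pycard to Casp12 at 13.7 the ranges overlapped between each pair of neighbours, so neither that order nor the order of Casp1 and Casp6 is resolved by 2 libraries.

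**Figure D1:**
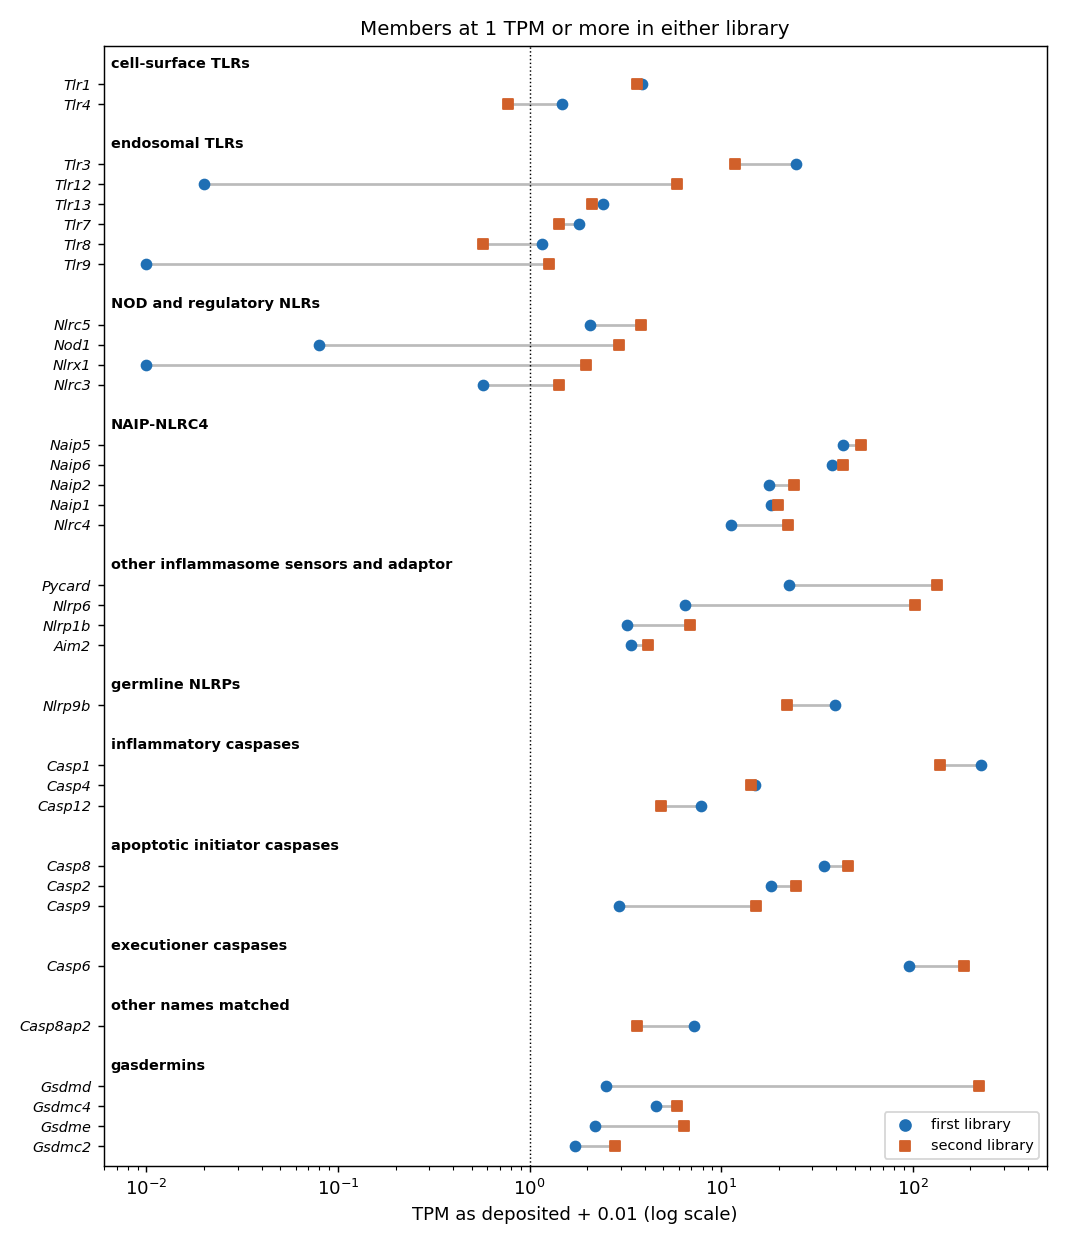
TPM as deposited in the first (circles) and second (squares) library for 34 members at 1 TPM or more in at least 1 library, on a log axis after adding 0.01, grouped by role, with 1 TPM dotted. Casp1 is highest in the first library at 226 TPM and Gsdmd in the second at 222 TPM, and Gsdmd, Nlrp6, Tlr12, Tlr9, Nod1 and Nlrx1 have the widest gaps between libraries.

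In total 45 members were tested. Of these 11 (24.4%) were called higher in the second library, where 40.2% of all 15194 tested genes were, and 17 (37.8%) were called higher in the first, where 27.5% of all were. Another 17 were not called. The median log2 ratio was -0.55 over the 45 members and 0.26 over all tested genes. Of the 77 partner genes, all tested, 30 (39.0%) were called higher in the second library against 23 (29.9%) in the first. The 2 libraries also differed by the GC content of the transcripts, as given in detail after the gene groups. With the trend of the log2 ratio on GC content removed, 5 members were called higher in the second library against 6 in the first, where 17.5% and 17.6% of all 15151 genes with a GC value were called. Of the partner genes 19 and 9 were then called. Results with that trend removed are given beside each group of members or partner genes whose calls depend on it.

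Among the TLRs of the cell surface, Tlr1 was the most abundant. TLR1 pairs with TLR2 to bind bacterial lipopeptides. Tlr1 measured 3.87 TPM in the first library and 3.64 TPM in the second. Tlr4, the receptor for lipopolysaccharide, measured 1.46 and 0.76 TPM. Both were called higher in the first library, at log2 ratios of -1.36 ± 0.14 and -1.69 ± 0.23, and neither was called with the GC trend removed (-0.08 and -0.01). The other 3 were below 1 TPM in both libraries. Tlr2 was at 0.42 and 0.60 TPM, Tlr6 at 0.28 and 0.69, and Tlr5, the receptor for extracellular flagellin, at 0.13 and 0.49. None of these 3 was called. The Tlr1 and Tlr6 transcripts are 74.3% identical along their alignment and the genes are neighbours on chromosome 5. The deposited posterior SD of the count was at most 0.861% for Tlr1 and 4.65% for Tlr6.

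The endosomal TLRs were led by Tlr3, which recognises double-stranded RNA. Tlr3 measured 24.7 TPM in the first library and 11.8 TPM in the second, which was 66.8% and 39.3% of the summed TPM of all TLR genes. Its log2 ratio was -2.33 ± 0.05, called higher in the first library. Tlr7 and Tlr8, neighbours on the X chromosome that recognise single-stranded RNA, measured 1.81 and 1.41 TPM and 1.15 and 0.56 TPM. Tlr13, which in the mouse recognises bacterial ribosomal RNA, measured 2.42 and 2.11 TPM. Those 3 were called higher in the first library too, at log2 ratios of -1.92 ± 0.19, -2.64 ± 0.32 and -1.48 ± 0.14. Tlr11, which in the mouse binds profilin of protozoa, was at 0.77 TPM in both libraries, and at a log2 ratio of -1.28 ± 0.28 it was called higher in the first. In all 5 of the 7 endosomal TLRs were called higher in the first library, against 27.5% of all tested genes, and with the GC trend removed none of the 5 was called and Tlr13 changed sign, to 0.31.

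The other two were called higher in the second library. Tlr12, which works with TLR11 in the mouse, had 1 count (0.01 TPM) in the first library and 334 counts (5.91 TPM) in the second. The scaled ratio was 215, with an exact counting interval from 38.4 to 8533. Tlr9, the receptor for unmethylated CpG DNA, had 0 counts in the first library and 78 counts (1.26 TPM) in the second. Measured against the floor of 3 counts in the first library, its level in the second was 16.8-fold higher. The exact counting interval of its ratio starts at 13.3. Transcripts of Tlr12 and Tlr9 have a GC content of 56.1% and 56.2%, and both were still called with the GC trend removed. The GC content was 40.1% for Tlr3, 41.5% for Tlr13, 41.6% for Tlr7, 42.2% for Tlr8 and 45.7% for Tlr11.

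Unc93b1 is needed to carry the endosomal TLRs out of the endoplasmic reticulum. It measured 0.09 TPM in the first library and 46.5 TPM in the second, and was called higher in the second at a log2 ratio of 7.50. Of the 18 TLR partner genes, 8 (44.4%) were called higher in the second library against 3 (16.7%) in the first. Among all tested genes 40.2% and 27.5% were. Hsp90b1, the chaperone of the TLRs, was the most abundant at 307 and 222 TPM and was called higher in the first library, as were Ly96 (16.8 and 8.26 TPM), the co-receptor of TLR4, and the ubiquitin ligase Traf6 (5.56 and 6.11 TPM). Myd88 measured 1.91 and 22.9 TPM and was called higher in the second library, but with the GC trend removed it was called higher in the first (2.29 and -1.58 on the log2 scale). Ticam1, the adaptor of TLR3, measured 0.17 and 35.3 TPM and was called higher in the second. Irak2 (3.31 and 31.4 TPM), Cnpy3 (0.51 and 19.9 TPM), Sigirr (0.04 and 10.6 TPM), Cd14 (0.22 and 2.40 TPM) and Lbp (0.14 and 0.97 TPM) were also called higher in the second. Tollip, not called, measured 11.3 and 41.2 TPM. With the GC trend removed 4 of the 18 were called higher in the second library (Unc93b1, Ticam1, Cnpy3 and Sigirr) and 5 in the first. Over all genes with a GC value 17.5% and 17.6% were. The 5 were Irak1 (-3.32), Tirap (-2.69), Traf3 (-1.60), Myd88 and Tollip (-1.06). Hsp90b1, Ly96 and Traf6 were no longer called.

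Markers of blood-derived cells that use TLRs were summed for each library. The 10 macrophage and monocyte markers summed to 30.6 TPM in the first library and 382 TPM in the second, with none of the 10 at 0. On TPM rescaled over nuclear protein-coding genes the sums were 114 and 506. Of the 10, 8 (80%) were called higher in the second library, where 40.2% of all tested genes were. With the GC trend removed 6 were, where 17.5% of all genes with a GC value were. The 5 dendritic cell markers summed to 4.13 and 16.9 TPM, with none at 0, and to 15.4 and 22.3 on the rescaled TPM. Of these 5, 3 (60%) were called higher in the second library and 1 (20%), Xcr1, in the first, where 27.5% of all tested genes were. With the GC trend removed none was called higher in the second and 1, Batf3, in the first. The 6 neutrophil markers summed to 0.14 and 2.43 TPM, with Elane, Ly6g and Mpo at 0 in both libraries. The part of these cells in the values of the TLRs and of the other members was not tested.

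NOD1 and NOD2 recognise fragments of bacterial peptidoglycan and signal through RIPK2. Nod1 had 8 counts (0.07 TPM) in the first library and 221 counts (2.92 TPM) in the second, a log2 ratio of 4.07 ± 0.50. Nod2, known in the ileum for its role in Paneth cells, had 17 and 67 counts (0.13 and 0.80 TPM), a log2 ratio of 1.31 ± 0.39. Both were called higher in the second library. So was Nlrx1, the NLR of mitochondria, with 0 counts in the first library and 127 counts (1.97 TPM) in the second. Against the floor its level was 27.3-fold higher, and the exact counting interval of its ratio starts at 21.9. Nlrc5, the activator of MHC class I genes, measured 2.07 and 3.82 TPM, and Nlrc3, a restraint on T cell and STING signalling, measured 0.56 and 1.41 TPM. Neither was called. With the GC trend removed no gene of the group was called higher in the second library, Nod2 (-1.49) and Nlrc3 (-1.63) were called higher in the first, and the sign of Nlrc5 changed too, to -0.62. The RNA of this group was the most GC-rich of the role groups with more than 2 tested members, with a median GC content of 55.1%.

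The NOD partner genes were counted in the same way. Of 13, 3 (23.1%) were called higher in the second library against 8 (61.5%) in the first. Among all tested genes 40.2% and 27.5% were. Erbin (96.9 and 56.6 TPM), Xiap (53.0 and 29.6 TPM), Birc2 (30.4 and 25.3 TPM) and Tab2 (26.3 and 28.5 TPM) were called higher in the first. So were Map3k7 (11.4 and 14.0 TPM), Ikbkg (9.02 and 13.2 TPM), Tab3 (12.9 and 8.46 TPM) and the kinase Ripk2 (2.46 and 2.30 TPM). These calls rest on the log2 ratio. For Tab2, Map3k7 and Ikbkg it was -1.08, -1.19 and -1.18, although their TPM was higher in the second library. The second library had higher Atg16l1 (4.32 and 15.3 TPM), an autophagy protein, Tab1 (0.04 and 12.2 TPM) and Slc15a4 (1.20 and 5.86 TPM). After removal of the GC trend only 2 of the 13 kept a call toward the first library, Ikbkg (-1.73) and Tab3 (-3.91). The 3 then called toward the second were Atg16l1, Tab1 and Tnfaip3 (1.16). Shares among all genes with a GC value were 17.6% toward the first and 17.5% toward the second. Erbin, Xiap, Birc2, Tab2, Map3k7, Ripk2 and Slc15a4 lost their calls.

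The NAIP-NLRC4 inflammasome was measured as a complete set, with all 5 genes above 10 TPM in both libraries. In the mouse NAIP5 and NAIP6 bind flagellin, NAIP1 the needle protein and NAIP2 the inner rod protein of bacterial type III secretion systems, and NLRC4 then polymerises onto them. Naip5 measured 43.0 TPM in the first library and 53.9 TPM in the second. Naip6 measured 37.9 and 43.3 TPM. Naip2 stood at 17.7 and 24.2 TPM, and Naip1 at 18.1 and 19.8 TPM. The flagellin receptors were the more abundant in both libraries: Naip5 and Naip6 together had 2.26 times the TPM of Naip1 and Naip2 in the first library and 2.21 times in the second. Nlrc4 was below each of its 4 sensors in the first library, at 11.2 TPM, and below Naip5, Naip6 and Naip2 in the second, at 22.5 TPM.

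On the log2 scale the 4 NAIP genes lay between -1.16 and -0.83, and Naip6 and Naip1, at -1.08 ± 0.03 and -1.16 ± 0.04, passed the 2-fold limit for a call in the first library. Naip5 at -0.96 ± 0.03 and Naip2 at -0.83 ± 0.04 did not, although their adjusted p were 1.94e-274 and 8.83e-82 by the exact binomial test. Nlrc4 was at -0.28 ± 0.06 and was not called. With the GC trend removed none of the 5 was called, and Naip5 (0.02), Naip6 (0.19) and Nlrc4 (0.67) changed sign. The GC content of the 5 genes lay between 44.3% and 46.7%.

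The 4 NAIP genes lie together on the minus strand of chromosome 13, with Naip2 starting at base 100144063 and Naip1 ending at base 100452869 (GRCm38). Their transcripts are 84.9% to 91.6% identical, with Naip5 and Naip6 the closest pair, so reads can fit more than 1 of them. The deposited posterior SD was at most 0.257% of the count for these genes in either library. RefSeq promoter windows (GRCm38.p6, from 250 bases before to 50 after the annotated start) are printed for 3 of them because these windows share an unbroken run within 110 bases before each start. Naip1 is at chr13:100452815-100453114, Naip2 at chr13:100202073-100202372 and Naip5 at chr13:100247287-100247586, all on the minus strand and written 5′ to 3′ along it, with the longest run shared by all 3 in capitals.
Naip1: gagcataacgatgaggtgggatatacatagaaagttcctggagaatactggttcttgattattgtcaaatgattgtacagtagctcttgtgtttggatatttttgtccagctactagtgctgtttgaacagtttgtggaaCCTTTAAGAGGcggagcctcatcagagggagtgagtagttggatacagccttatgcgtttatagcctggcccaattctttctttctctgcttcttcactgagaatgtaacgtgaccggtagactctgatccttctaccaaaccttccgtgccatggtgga
Naip2: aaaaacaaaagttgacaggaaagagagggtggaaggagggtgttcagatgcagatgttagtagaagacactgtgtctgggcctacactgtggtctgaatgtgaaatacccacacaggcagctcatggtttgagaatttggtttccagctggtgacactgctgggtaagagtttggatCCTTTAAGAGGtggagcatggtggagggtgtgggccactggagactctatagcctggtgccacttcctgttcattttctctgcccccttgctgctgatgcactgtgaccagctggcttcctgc
Naip5: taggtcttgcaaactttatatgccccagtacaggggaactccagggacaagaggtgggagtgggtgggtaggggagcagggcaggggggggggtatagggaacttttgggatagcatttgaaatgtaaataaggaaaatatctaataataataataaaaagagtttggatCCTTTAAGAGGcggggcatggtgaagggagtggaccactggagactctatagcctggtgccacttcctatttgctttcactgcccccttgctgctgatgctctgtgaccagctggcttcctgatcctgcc

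The shared run is 11 bases long. It lies 110 to 100 bases before the start of Naip1, 73 to 63 before that of Naip2 and 80 to 70 before that of Naip5. Of 32851 RefSeq promoter windows, 30 (0.0913%) hold it on either strand. The run was chosen after the windows were compared, so this share is a description. Naip2 and Naip5 are 71.3% identical over their aligned windows and Naip1 and Naip2 67.1%. The window of Naip6 does not hold the run, and its longest stretch in common with all 3 is 6 bases. The RefSeq start of Naip5 lies 1013 bases from the nearest transcript start in the GENCODE annotation, so which start these libraries used was not determined.

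Among the other inflammasome genes the adaptor Pycard (ASC), which links sensors to caspase-1, was the most abundant. It measured 22.5 TPM in the first library and 134 TPM in the second, with a log2 ratio of 1.30 ± 0.06, called higher in the second, and 2.29 with the GC trend removed. Nlrp6, an NLR of the intestinal epithelium tied to goblet cell mucus and the microbiota, measured 6.51 and 103 TPM, with a log2 ratio of 2.69 ± 0.05, also called higher in the second, but with the GC trend removed it was called higher in the first at -1.07. Nlrp1b, whose product is cut by anthrax lethal factor in some mouse strains, measured 3.22 and 6.90 TPM and was not called. Aim2, the sensor of cytosolic DNA, measured 3.36 and 4.13 TPM, and at a log2 ratio of -1.55 ± 0.18 it was called higher in the first library, though not with the GC trend removed.

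Nlrp3, the sensor of membrane damage and ion efflux in myeloid cells, was near the limit of detection. It had 2 counts (0.02 TPM) in the first library and 29 counts (0.48 TPM) in the second. The scaled ratio was 9.35 with an exact counting interval from 2.37 to 80.9, and it was called higher in the second library. Nlrp6 TPM exceeded that of Nlrp3 in both libraries. Nlrp1a, Nlrp10 and Nlrp12 were at 0.36 TPM or less, with Nlrp1a the highest, and none of them was called.

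The germline NLRPs are a cluster of NLR genes best known from oocytes. Of 11 members in this group, 9 had no count in either library, namely Nlrp2, Nlrp4a, Nlrp4b, Nlrp4c, Nlrp4e, Nlrp5, Nlrp9a, Nlrp9c and Nlrp14. Zero counts allow up to 3 counts, which is 0.106 CPM (counts per 1000000 counts of the library) in the first library and 0.122 in the second. Nlrp4f had 1 count in the first library and none in the second. Nlrp9b alone was abundant, with 2457 counts (39.5 TPM) in the first library and 1225 counts (22.0 TPM) in the second. In the mouse intestine NLRP9B is known to recognise rotavirus RNA together with the helicase DHX9. Its log2 ratio was -1.64 ± 0.05, called higher in the first library, and 0.11 and not called with the GC trend removed. The 5 oocyte markers summed to 0.36 TPM in the first library and 3.87 TPM in the second, with Zp3 at 0 in both. Gdf9 held 55 of the 67 counts of that list in the second library and was its only marker with enough counts to be tested. The part of such cells in the Nlrp9b values was not tested.

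Nlrp9b lies on the plus strand of chromosome 7 from base 19991465 to base 20073306 (GRCm38). Nlrp9a and Nlrp9c lie more than 6 megabases away on the same chromosome. The transcripts of the 3 are 83.3% to 88.2% identical, and the deposited posterior SD of the Nlrp9b count was 0 in both libraries. The RefSeq promoter windows are printed because the gene with counts and its 2 copies without counts differ there. Nlrp9a is at chr7:26534773-26535072 on the plus strand, Nlrp9b at chr7:20007773-20008072 on the plus strand and Nlrp9c at chr7:26403651-26403950 on the minus strand, each written 5′ to 3′ in the direction of the gene. Capitals mark the longest unbroken run that each shares with another of the 3.
Nlrp9a: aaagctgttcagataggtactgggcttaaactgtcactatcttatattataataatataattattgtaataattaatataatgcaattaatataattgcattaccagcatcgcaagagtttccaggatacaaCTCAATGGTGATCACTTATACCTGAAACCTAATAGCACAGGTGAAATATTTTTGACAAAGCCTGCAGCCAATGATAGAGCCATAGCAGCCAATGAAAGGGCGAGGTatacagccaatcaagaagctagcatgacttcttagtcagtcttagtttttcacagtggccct
Nlrp9b: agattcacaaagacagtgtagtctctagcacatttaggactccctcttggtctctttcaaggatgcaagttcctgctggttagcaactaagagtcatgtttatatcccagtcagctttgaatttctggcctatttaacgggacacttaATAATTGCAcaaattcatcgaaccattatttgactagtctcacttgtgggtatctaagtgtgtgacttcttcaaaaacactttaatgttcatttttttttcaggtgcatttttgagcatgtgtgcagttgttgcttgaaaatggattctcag
Nlrp9c: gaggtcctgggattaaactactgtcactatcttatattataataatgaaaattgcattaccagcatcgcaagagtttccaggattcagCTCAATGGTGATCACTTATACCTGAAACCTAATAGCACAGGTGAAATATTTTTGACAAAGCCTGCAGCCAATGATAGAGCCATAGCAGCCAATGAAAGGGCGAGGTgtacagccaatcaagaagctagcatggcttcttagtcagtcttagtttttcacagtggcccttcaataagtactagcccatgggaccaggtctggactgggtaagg

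Nlrp9a and Nlrp9c share a run of 106 bases, which ends 13 bases before the start of Nlrp9a and 57 before that of Nlrp9c, and their windows are 96.4% identical over 253 aligned bases. The longest run Nlrp9b shares with either is 9 bases. Its window is 62.8% identical to that of Nlrp9a over 207 aligned bases and 61.8% to that of Nlrp9c over 249. The RefSeq start of Nlrp9b coincides with that of transcript Nlrp9b-201 in the GENCODE annotation. That transcript held 58.1% of the gene's TPM in the first library and 91.8% in the second, so it was the leading form in both.

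Over the whole set, 48 of the 61 members had at least 1 of 58 RefSeq promoter windows. Searched on both strands, the letters TTTATNG, the core bound by the intestinal factor CDX2, occurred in 6 of 58 windows (10.3%) and in 10.9% of all 32851 windows. The letters CAAAGTNCA, an element of HNF4A, occurred in 1 of 58 and in 1.41% of all. TATAAA occurred in 6 of 58 and in 13.6% of all. The GC box GGGCGG occurred in 14 of 58 (24.1%) and in 35.7% of all. A match written TTTATAG also holds TATAAA on the opposite strand. The members' windows had a median GC content of 48.0% and a median of 4.5 CpG, against 52.7% and 7 over all windows.

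The inflammatory caspases lie side by side on the plus strand of chromosome 9, from base 5298517, where Casp1 starts, to base 5373032, where Casp12 ends (GRCm38). Casp1 was the most abundant member in the first library and remained among the highest in the second, at 226 and 139.6 TPM. Casp4, which encodes the mouse receptor for cytosolic lipopolysaccharide, measured 15.1 and 14.3 TPM. Casp12, whose product resides at the endoplasmic reticulum, measured 7.85 and 4.84 TPM. All 3 were called higher in the first library, at log2 ratios of -1.97 ± 0.03, -1.50 ± 0.11 and -2.28 ± 0.14, and with the GC trend removed none was called, at -0.12, 0.23 and -0.13. Casp1 had 28.8 times the TPM of Casp12 in both libraries. It had 15.0 times the TPM of Casp4 in the first library and 9.75 times in the second. Their GC contents of 41.1%, 41.9% and 39.2% were among the lowest of the members.

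The products of caspase-1 were measured at unequal levels. Il18, a cytokine made by the epithelium, was at 439 TPM in the first library and 214 TPM in the second and was called higher in the first. Il1b was at 1.46 and 4.27 TPM and was not called. Of 17 names of inflammasome partners and products, 16 had a row in the tables. Among the 16, 4 (25%) were called higher in the second library against 5 (31.25%) in the first. Among all tested genes 40.2% and 27.5% were. The other 4 higher in the first were Dhx15 (59.6 and 42.6 TPM), Dpp8 (29.5 and 27.7 TPM), Nek7 (11.4 and 7.68 TPM), the partner of NLRP3, and Il1a (2.20 and 2.04 TPM). Higher in the second were Prkcd (16.9 and 191 TPM), Dpp9 (0.49 and 17.9 TPM), Ninj1 (0 and 14.4 TPM), which ruptures the membrane of dying cells, and Card9 (0 and 2.40 TPM). Txnip, not called, measured 43.7 and 222 TPM. Once the GC trend was taken out, none of the 5 calls in the first library remained, with Il18 at -0.32. Prkcd, Dpp9 and Card9 lost their calls in the second. Ninj1 kept its call there, and Txnip (1.05) and Il1b (1.17) gained a call, which made 3 of the 16. Shares over all genes with a GC value were 17.5% for the second library and 17.6% for the first.

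Gasdermin D, the pore former cut by caspase-1, differed between the libraries by more than any other member above 10 TPM in either. Gsdmd had 118 counts (2.51 TPM) in the first library and 6672 counts (222 TPM) in the second, a log2 ratio of 5.18 ± 0.13. It was the highest member in the second library, yet it was below Casp1, Pycard and all 4 NAIPs in the first. The ratio of Casp1 to Gsdmd TPM was 90.1 in the first library and 0.630 in the second. With the trend on GC content removed Gsdmd was still called higher in the second, at a log2 ratio of 2.84.

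The other gasdermins were low. Gsdmc4 measured 4.55 and 5.91 TPM and Gsdmc2 1.71 and 2.77 TPM. Gsdme, a pore former of apoptotic cells, measured 2.19 and 6.36 TPM. None of these 3 was called. Gsdmc3 was at 0.30 and 0.44 TPM. Gsdma, known from skin, had 7 and 28 counts (0.09 and 0.58 TPM) and was called higher in the second library with an adjusted p of 0.0266 by the exact binomial test, a call lost with the GC trend removed. Gsdma2 had 5 and 13 counts, and Gsdma3 and Gsdmc had none in either library. Transcripts of Gsdmc2, Gsdmc3 and Gsdmc4, which lie together on chromosome 15, are 92.1% to 96.9% identical. The deposited posterior SD reached 11.9% of the count for Gsdmc3 and at most 1.68% for the other two, so the count of Gsdmc3 in particular is uncertain.

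Among the apoptotic initiator caspases, Casp8, activated at death receptors and in necroptosis control, measured 34.5 and 45.8 TPM and was not called. Casp2 measured 18.3 and 24.7 TPM and was called higher in the first library at a log2 ratio of -1.02 ± 0.05. Casp9, activated by cytochrome c and Apaf1, measured 2.92 and 15.1 TPM and was called higher in the second at 1.31 ± 0.10, but with the GC trend removed it was called higher in the first at -2.74. The ratio of Casp8 to Casp9 TPM was 11.8 in the first library and 3.03 in the second.

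Casp6, which cuts lamins and other proteins of a dying cell, measured 96.0 TPM in the first library and 185 TPM in the second. Its log2 ratio of -0.40 ± 0.03 was not called, but with the GC trend removed it was called higher in the first library at -1.09. Casp14, a caspase of the skin, had 7 counts and 1 count. Casp8ap2 measured 7.25 and 3.63 TPM and was called higher in the first library at -2.28 ± 0.08, a call lost with the GC trend removed (-0.45).

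Of 22 apoptosis and necroptosis genes, 11 were called higher in the second library (50% of the list, 40.2% of all tested genes) and 5 in the first (22.7% and 27.5%). The 5 were Cycs (233 and 177 TPM), which encodes cytochrome c, Mcl1 (107 and 94.0 TPM), Cflar (30.2 and 34.0 TPM), Fas (25.3 and 24.2 TPM) and Bcl2 (1.56 and 1.54 TPM). The effectors of mitochondrial permeability were in the other set, with Bak1 at 0.58 and 115 TPM and Bax at 0.05 and 39.5 TPM. Also higher in the second were Tnfrsf1a (1.05 and 87.0 TPM), Tradd (0.59 and 34.5 TPM), Zbp1 (4.19 and 28.4 TPM), Bcl2l1 (2.18 and 30.2 TPM), Dffa (1.75 and 18.5 TPM) and Parp1 (2.57 and 11.3 TPM). Ripk3 (0.14 and 10.9 TPM), Bid (1.68 and 8.83 TPM) and Fadd (1.54 and 8.24 TPM) completed them. Mlkl, the pore former of necroptosis, measured 7.42 and 11.2 TPM and was not called. Removing the GC trend left 6 of the 22 called toward the second library, where 17.5% of all genes with a GC value were. They were Bak1, Bax, Tnfrsf1a, Bcl2l1, Ripk3 and, newly, Diablo (1.33). It left 2 toward the first (17.6% of all), Mcl1 (-4.15) and, newly, Dffb (-2.92). Cycs, Cflar, Fas and Bcl2 lost their calls in the first library. Tradd, Zbp1, Dffa, Parp1, Bid and Fadd lost theirs in the second.

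Of the 8 cytosolic nucleic acid sensors and adaptors, 4 (50%) were called higher in the second library against 2 (25%) in the first. Among all tested genes 40.2% and 27.5% were. Irf3 (2.38 and 59.7 TPM), Mavs (1.94 and 49.1 TPM), Dhx58 (0.12 and 6.85 TPM) and Tmem173, which encodes STING (0.21 and 3.50 TPM), were higher in the second. Ifih1, the sensor MDA5, at 31.9 and 24.4 TPM, and Cgas, at 1.37 and 1.06 TPM, were higher in the first. Tbk1 at 25.6 and 38.9 TPM and Ddx58, the sensor RIG-I, at 22.6 and 31.0 TPM were not called. With the GC trend removed 3 were called higher in the second library, Mavs, Dhx58 and Tmem173, and none in the first. Over all genes with a GC value 17.5% and 17.6% were. Irf3 (-0.24), Ifih1 (-0.34) and Cgas (-0.95) lost their calls.

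GC content moved with these ratios. Across the 45 members the log2 ratio and GC content had Pearson's r of 0.837 and Spearman's rho of 0.903. Across 14018 tested nuclear protein-coding genes of the same 2 libraries r was 0.807 and rho 0.862. The members had a median GC content of 46.0%, against 50.4% over all tested genes. With the trend removed, the median log2 ratio of the members became -0.011 and that of all genes -0.012.

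**Figure D2:**
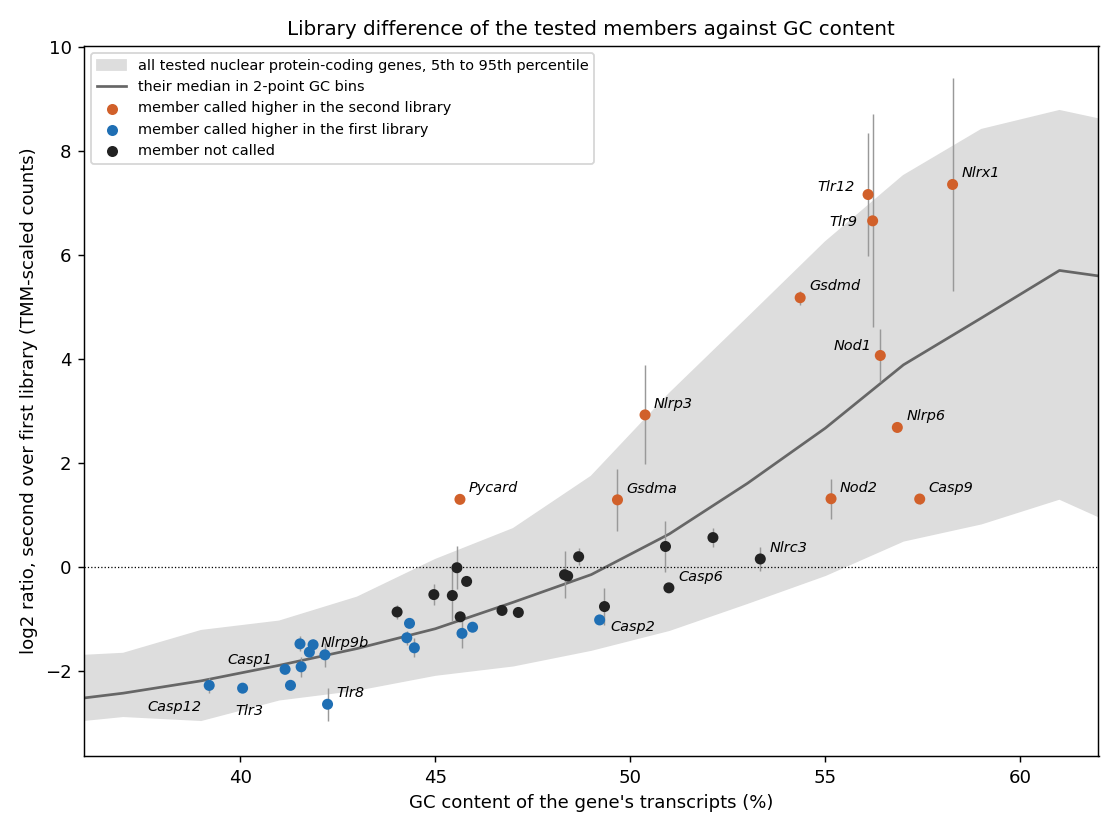
Log2 ratio of TMM-scaled counts, second over first library, against the GC content of the gene's transcripts in percent, for 43 tested members (points, bars are ± 1 counting SE, colour gives the call), over the median (line) and the 5th to 95th percentile (band) of all tested nuclear protein-coding genes in GC bins. Most members follow the line, while Pycard, Gsdmd and Tlr12 lie above it and Casp9 below it. Gsdmd and Casp9 are still inside the band, and Pycard lies above the band. Tlr9 and Nlrx1 have 0 counts in the first library, so the height of their points depends on the 0.5 counts added.

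The 5 members that remained higher in the second library were Gsdmd (2.84), Pycard (2.29), Tlr12 (3.82), Nlrp3 (2.50) and Tlr9, all of them called in that direction before. No value is given for Tlr9, which had no count in the first library. Of the 6 called higher in the first library after removal, Casp2 at -1.02 was the only one called in that direction before. Casp9, Nlrp6 and Nod2, called higher in the second library without the removal, were called higher in the first with it, at -2.74, -1.07 and -1.49. The remaining 2, Nlrc3 (-1.63) and Casp6 (-1.09), were not called without it. Among the calls lost were those of Casp1, Casp4, Casp12, Tlr3, Nlrp9b, Naip1 and Naip6, with log2 ratios between -0.31 and 0.23. Among the partner genes called without the removal, Myd88 alone was called in the opposite direction with it. The sign also turned, with no call, for Irak2, Dpp9, Tradd, Dffa and Irf3, which had been higher in the second library, and for Erbin, Tab2, Nek7, Il1a and Fas, which had been higher in the first. Whether GC content itself made the difference between the libraries was not tested.

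The transcript tables showed which isoform carried each gene. Among the 29 members that reached 1 TPM in each library, 9 had a single transcript in the tables and 20 had several. The leading transcript was the same in both libraries for 16 of the 20 and differed for Nlrc5, Gsdmc4, Gsdmc2 and Casp12. In the first library Nlrc5-202, a short coding form of 1721 bases, held 97.0% of Nlrc5 TPM, and in the second it held 0%. Nlrc5-203, a retained-intron form, then led with 55.5%. Nlrc5-203 took 61.9 of the 212 Nlrc5 counts in the second library, and the effective length behind the gene's TPM was 1502 bases in the first library and 2950 in the second. Gsdmc4-201 held 50.5% in the first library and 0.17% in the second, where Gsdmc4-202 held 99.8%. Gsdmc2-201 held 51.5% in the first library and 10.9% in the second, and Gsdmc2-203 led in the second with 48.9%. Casp12-205, a form marked for nonsense-mediated decay, held 36.1% and 9.26%, and Casp12-204 led in the second with 42.8%.

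Among those with the same leading form, the share differed most for Nlrp9b, above, and for Casp8-202, at 89.5% and 58.6%. Nlrp6-203 held 100% and 98.3%, Casp6-201 100% and 92.1%, and Nlrp1b-203 90.5% and 90.4%. Isoform shares within a gene are estimates from overlapping transcripts, and for Gsdmc2 the leading forms rest on 46.7 and 50.7 expected counts. The lead of Casp12-204 in the second library rests on 34.6 expected counts.

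**Figure D3:**
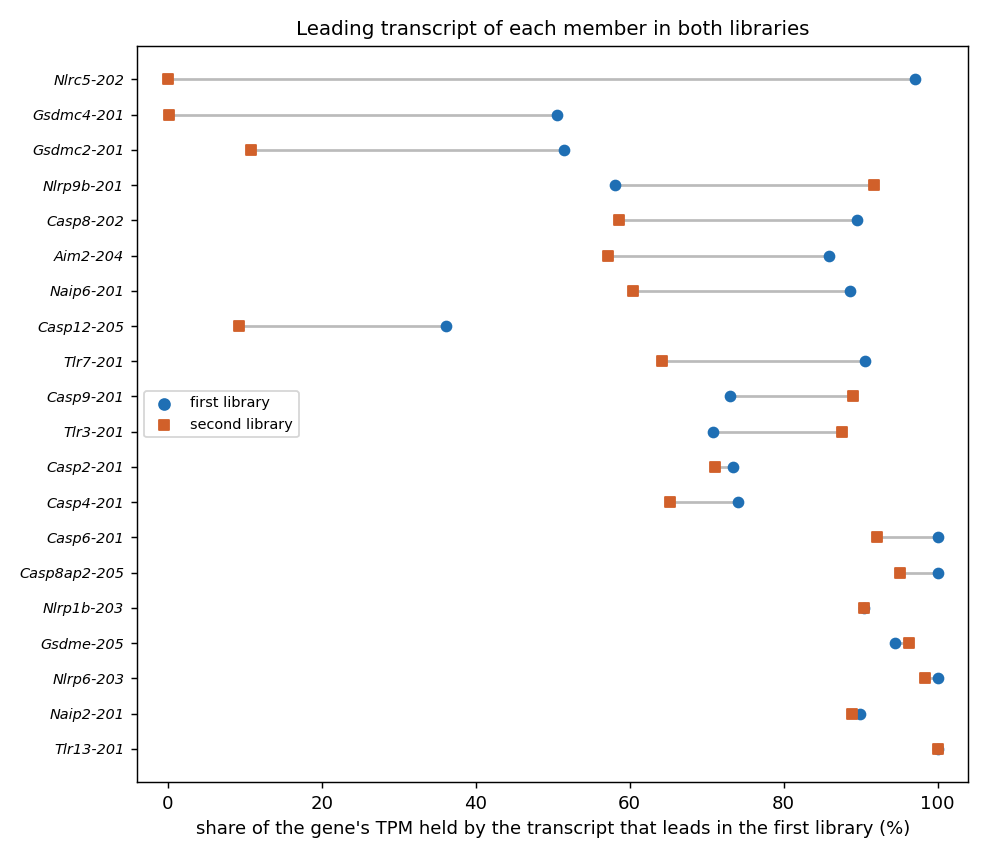
Share of the gene's TPM, in percent, held by the transcript that leads in the first library, in the first (circles) and second (squares) library, for the 20 members with several transcripts and at least 1 TPM in both. Nlrc5-202 holds 97.0% in the first library and 0% in the second and Gsdmc4-201 50.5% and 0.17%, while Nlrp6-203, Nlrp1b-203 and Tlr13-201 differ by less than 2 points.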

How the data were processed

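Both libraries were polyadenylated RNA-seq libraries of the same mouse small intestine, from RNA taken with a lipid tissue column kit per the labels. The deposited gene and transcript tables hold expected counts, TPM, isoform percentages and, as deposited, the posterior standard deviation of each count, on build mm10 with annotation M4 per the file headers. The aligner and the counter are not named there and are not given in the sources here. The authors' TPM values sum to 1000000 with mitochondrial genes included. Isoform shares are percent of a gene's TPM, as the authors deposited them.

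Symbols, biotypes and GC content came from GENCODE M21 by gene ID without its version, and 42462 of 43346 IDs matched. A further 26345 rows without counts (spike-ins and transfer RNAs) were left out. Expected counts were rounded and scaled by TMM (edgeR 4.0.16), and each gene was tested by a two-sided exact binomial test with Benjamini-Hochberg adjustment. With 1 library on each side no quasi-likelihood fit of edgeR was possible. Log2 ratios used a prior of 0.5 counts. Ratios of genes with few counts have 95% exact intervals. The GC trend was a lowess curve of span 0.3 over tested nuclear genes. DESeq2 1.42.0 gave size factors for an alternative. Intervals, SE and floors cover counting error only.

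Every member at 1 TPM or more in either library is named, except 2 that are counted in the totals and not reported here, together with the partner genes of highest TPM and those called. The symbol rule uses no measured value, but the families it covers, the role groups, the partner lists and the markers were chosen with earlier results of these data known, so no list gives independent support.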

Additional observations from a re-analysis of the deposited data

Results flagged for a closer look

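Reads were also assigned to names of these families that are no protein-coding genes and so entered no comparison. Naip3, an unprocessed pseudogene between Naip6 and Naip1 at chr13:100340144-100378960 (GRCm38), had 703 expected counts in the first library and 379.7 in the second (5.08 and 4.30 TPM), above the floor of 3 counts. Nlrp1c-ps, a transcribed pseudogene on chromosome 11, had 10 and 19 expected counts (0.10 and 0.31 TPM). The other 7 such names had at most 4 counts in either library.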

How the results depend on the processing

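With the GC trend removed, members called higher in the second library went from 11 to 5 and those higher in the first from 17 to 6, partner genes from 30 to 19 and from 23 to 9, and the median log2 ratio of the members from -0.55 to -0.011. The log2 ratio changed sign for 13 of 36 named members, to 0.31 for Tlr13, -0.62 for Nlrc5, -1.63 for Nlrc3, 0.024 for Naip5, 0.19 for Naip6, 0.67 for Nlrc4, -1.07 for Nlrp6, 0.094 for Nlrp1b, 0.11 for Nlrp9b, 0.23 for Casp4, -2.74 for Casp9, 0.47 for Gsdmc4 and 0.61 for Gsdmc2. Another 13 lost their call and Casp6 gained one. The cause was not tested. Scaling by nuclear protein-coding totals moved the members' median to -0.35 (0.46 over all genes), turned Nlrp1b to 0.020 and ended 3 calls, of Naip6, Naip1 and Casp2. DESeq2 size factors added a call of Naip5 in the first library. Requiring 4-fold left 7 members higher in the second library against 4 in the first, and 5 partner genes in the first. At 5 TPM in place of 1 TPM, 16 members passed in both libraries in place of 29, and all 9 with several transcripts had the same leading one. Counting members at 1 TPM in only 1 library gave 34 without replicate 1 and 31 without replicate 2. Count minimums of 10 and 1 tested 48 and 50 members in place of 45 and left the counts of calls within 1.5 times. No paired analysis was possible because the series has 1 group with 1 library of each number. The spread between animals is unknown.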
